A study of Mus musculus with 32 samples.

Results

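In all, 10 genes of the immediate-early and heat shock responses were followed in macrophages of mouse tumours: Fos, Fosb, Jun, Junb, Egr1, Egr2, Atf3, Dusp1, Dusp2 and Hspa1b. They were taken by name, through the probe sets to which the platform annotation gives a single symbol, with the probe set of highest mean standing for the gene. All 10 were found on both chips, among 17097 named genes on the HT_MG-430_PM chip and 22180 on the Mouse Gene 2.0 ST chip. All 10 also passed the filter on low values in all 3 experiments, so no member was lost. Expression was measured on 32 arrays, and levels are log2 signals, on which a difference of 1 is a doubling. Levels can be compared neither between genes, since probe sets differ in response, nor between experiments.

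The first experiment compared 3 arrays of neuroblastoma, which arises in the peritoneum of mice carrying the Th-MYCN transgene, with 3 arrays of EG7 tumours in WT hosts. EG7 is a transplantable mouse T lymphoma line, and its grafts are called thymomas in the labels. The second compared EG7 tumours grown in Myd88-/- hosts, which lack Myd88 in every host cell, with those of WT hosts, at 5 arrays each. In both, tumours were digested and CD11b+ cells were enriched on magnetic beads, which leaves other cells in the sample. The third used flow sorting of EG7 tumours into population A (CD11b+, Ly6G-, Ly6C+, MHCII-) and population C (CD11b+, Ly6C-, MHCII+). Hosts were WT, TNFR1-/-, Myd88flox/flox; Tie2-Cre (here Myd88 cKO), or carried both changes (double KO), with 2 arrays for each genotype and population. Tie2-Cre acts in endothelium and in blood-forming cells, so Myd88 is lost from more than macrophages in these hosts. Ages and sexes are not given in the labels. The labels name changes in the hosts only. Arrays of glioma, which the design text names, were not analysed here. Whether each array stands for its own mouse is not stated in the labels. The p-values therefore set a difference against how far arrays of the same group lie apart, which may be technical variation. In the third experiment that spread was pooled over all 8 groups. It was larger in A than in C for 9 of 10 members, so tests within C carry the spread of A as well.

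Immediate-early genes are switched on within minutes of a signal, without new protein synthesis, mainly through MAP kinases that act on serum response factor, its ternary complex partners and CREB. Fos, Fosb, Jun and Junb form the AP-1 transcription factors, Egr1 and Egr2 are zinc finger factors, and Atf3 is a stress-induced repressor of the ATF/CREB family. Dusp1 and Dusp2 encode nuclear phosphatases that shut MAP kinases off again, and Hspa1b encodes the inducible chaperone Hsp70, which is under control of heat shock factor. In macrophages the same genes respond to Toll-like receptors, which signal through the adaptor Myd88, and to tumour necrosis factor through TNFR1. They also respond to tissue digestion and handling, and all cells here were isolated from tumours by beads or by sorting. Cells taken without isolation were not among the samples, so the part of isolation in any level was not tested.

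Upstream sequences show which of the classical response elements lie close to these start sites. They were read from RefSeq promoter windows (GRCm38.p6), which matched 9 of the 10 members; Egr1 had no entry. The 5 motifs searched on both strands in the 250 bases before each start were the CRE core TGACGT, the AP-1 site TGANTCA, an inverted heat shock repeat (GAANNTTC or TTCNNGAA), the CArG box of serum response factor and the NF-kB site, the last 2 by their usual consensus. Of 32851 windows of that length, 6.47% held the CRE core, 6.75% the AP-1 site, 12.8% the heat shock repeat, 1.47% the CArG box and 7.25% the NF-kB site. The bases nearest the start follow for some of the genes, with the CRE core or heat shock repeat in capitals. Fos, Dusp1 and Atf3, each with 1 listed start, are shown because they carry a CRE core. Egr2, with a CRE core before some of its 5 listed starts, is not printed. Dusp2 is shown because it was the member that differed most with Myd88 in bead-enriched cells, and Hspa1b with Hspa1a because the pair is nearly identical.
Fos, chr12:85473770-85473889, + strand: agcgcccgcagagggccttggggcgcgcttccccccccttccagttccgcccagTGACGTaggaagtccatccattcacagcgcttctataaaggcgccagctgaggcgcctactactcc
Dusp1, chr17:26508473-26508672, - strand: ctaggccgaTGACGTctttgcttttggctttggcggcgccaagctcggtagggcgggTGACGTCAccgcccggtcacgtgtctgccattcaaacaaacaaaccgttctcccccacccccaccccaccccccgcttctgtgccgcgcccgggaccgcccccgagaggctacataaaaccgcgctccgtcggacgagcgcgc
Atf3, chr1:191183334-191183453, - strand: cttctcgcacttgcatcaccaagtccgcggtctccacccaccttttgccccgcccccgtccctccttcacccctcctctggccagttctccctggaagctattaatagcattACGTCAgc
Dusp2, chr2:127336039-127336158, + strand: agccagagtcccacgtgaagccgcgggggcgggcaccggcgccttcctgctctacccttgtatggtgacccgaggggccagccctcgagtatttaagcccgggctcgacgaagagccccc
Hspa1b, chr17:34959239-34959358, - strand: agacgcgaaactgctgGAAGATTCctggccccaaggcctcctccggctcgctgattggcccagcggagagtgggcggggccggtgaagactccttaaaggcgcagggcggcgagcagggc
Hspa1a, chr17:34972157-34972276, - strand: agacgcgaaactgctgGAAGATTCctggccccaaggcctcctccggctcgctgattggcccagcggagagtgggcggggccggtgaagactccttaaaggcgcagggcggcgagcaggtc

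Fos carried its CRE core 66 to 61 bases before the start and an NF-kB match at 214 to 205. Dusp1 had 3 matches to the CRE core, at 191 to 186, 143 to 138 and 141 to 136, the last 2 being both strands of 1 palindrome. The single match of Atf3 lay at 8 to 3. Dusp2 and Junb held none of the 5 motifs in this window. Fosb held an NF-kB match and Jun held the heat shock repeat, at 128 to 121. Hspa1b held both, the heat shock repeat at 104 to 97 and an NF-kB match at 133 to 124. Egr2 has 5 listed starts, and between them their windows held a CRE core, a CArG box, a heat shock repeat and NF-kB matches. Such matches describe the letters only. The 250 bases before Hspa1b and Hspa1a differed at 3 positions (98.8% identical). Their transcripts are near-identical copies as well, so probe sets may read both and Hspa1b values are uncertain in that respect.

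All members were well above the low end of the arrays. The lowest member value was 8.72 in the tumour models, where the 40th percentile of an array lay at 3.44 to 3.48. It was 6.78 against 2.63 to 2.73 in the Myd88 experiment and 7.15 against 4.92 to 5.14 in the sorted arrays. Myd88 itself was lower by -0.75 ± 0.10 (SE; limma adjusted p = 0.00175) in Myd88-/- hosts, by -1.79 ± 0.19 in population A and by -1.76 ± 0.19 in population C of hosts with the Tie2-Cre deletion. In C, double KO replicate 1 read Myd88 at 8.76, between the other 3 deleted arrays (7.49, 7.53 and 7.97) and the lowest array with Myd88 (9.22). Tnfrsf1a, which encodes TNFR1, differed by -0.34 ± 0.17 (adjusted p = 0.390) in A and -0.54 ± 0.17 (adjusted p = 0.233) in C of TNFR1-/- hosts. In A, 3 arrays of TNFR1-/- hosts read 7.51, 7.59 and 7.69, but the library labelled double KO replicate 2 read 8.20, between the WT arrays (8.09 and 8.30), which goes against its TNFR1-/- label. Its Myd88 value of 8.32 lay below all A arrays with Myd88 (9.46 and above). In C, Tnfrsf1a read higher in TNFR1-/- replicate 2 (7.87) than in WT replicate 2 (7.81). Single readings of this probe set therefore do not settle a genotype. The position of the Tnfrsf1a probe set relative to the deletion is not stated in the labels. These are mixtures of cells or sorted pools, in which fewer cells of a type and less RNA per cell cannot be told apart.

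Loss of Myd88 in the whole host asks which of these genes differ in CD11b-enriched cells when every host cell lacks Myd88. Whether CD11b+ cells themselves need its signals was not tested. Of the 10 members, 2 fell, Dusp2 and Egr1, and none rose. Dusp2 dropped to 0.438 times its WT signal and Egr1 to 0.704 times, while Dusp1 stood at 0.930 times WT and the difference of Fos was 0.01 on the log2 scale. Over all 11915 genes tested 1.44% were called, 0.26% higher and 1.18% lower in Myd88-/- hosts.

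Among the phosphatases, Dusp2 read 8.13, 8.19, 8.14, 8.26 and 8.04 in the 5 WT arrays and 6.95, 7.15, 6.84, 6.78 and 7.08 in the 5 Myd88-/- arrays. Every Myd88-/- array lay below every WT array, and the groups stood apart by far more than the spread within either. The difference was -1.19 ± 0.09 (95% interval -1.38 to -1.0, limma adjusted p = 1.85e-05), the 4th smallest p of all genes tested. Dusp1 read 12.63, 12.66, 12.68, 12.67 and 12.67 in WT hosts against 12.54, 12.65, 12.49, 12.61 and 12.50 in Myd88-/- hosts. These groups overlapped in a single Myd88-/- array, and the difference of -0.10 ± 0.07 did not pass the test (adjusted p = 0.607), with an interval of -0.25 to 0.04. Among 8 further MAP kinase phosphatases tested, 2 fell and none rose: Dusp16, which acts on JNK, at -0.76 ± 0.13 and Dusp14 at -0.98 ± 0.20. The median over the 8 was 0.07, against 0.012 over all genes.

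The zinc finger factors gave 1 call. Egr1 read 11.62, 11.65, 11.83, 11.74 and 11.53 in WT hosts and 11.30, 11.14, 10.92, 11.11 and 11.37 in Myd88-/- hosts. The highest Myd88-/- array lay below the lowest WT array, a difference of -0.51 ± 0.10 (-0.72 to -0.30, limma adjusted p = 0.0213). Egr2 read 10.14, 10.18, 10.11, 9.62 and 9.95 against 9.66, 9.91, 9.85, 9.37 and 9.82. The groups of Egr2 overlapped and the difference of -0.28 ± 0.13 did not pass (adjusted p = 0.399); its other probe set gave -0.17 ± 0.17.

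The call for Egr1 was not stable. With a term for the replicate number it had adjusted p = 0.0918, and it was lost in 4 of 10 fits that left out 1 array: without WT replicate 2 (adjusted p = 0.0618) or 3 (0.0783), and without Myd88-/- replicate 3 (0.0513) or 4 (0.0552). The signal of actin control probes, 3' minus 5', was 0.54, 0.56, 0.62, 0.60 and 0.68 in WT hosts and 0.66, 0.71, 0.67, 0.78 and 0.64 in Myd88-/- hosts, a measure of RNA integrity that overlapped but ran higher in the latter. With it as a covariate Egr1 was at -0.43 ± 0.13 (limma adjusted p = 0.413). Dusp2 was called in all 17 alternatives, at -1.24 to -1.10.

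The AP-1 genes and Atf3 did not pass the test. Fos read 12.53, 12.62, 12.75, 12.75 and 12.67 in WT hosts and 12.70, 12.74, 12.56, 12.56 and 12.79 in Myd88-/- hosts. The difference was 0.01 ± 0.08 in signal, with an interval of -0.17 to 0.18. Whether signals as high as 12.53 to 12.79 still follow the amount of RNA evenly was not tested, and the same holds for Dusp1. Fosb read 9.41, 9.25, 9.41, 9.02 and 9.24 against 9.31, 9.20, 8.83, 9.90 and 9.43, with the highest and the lowest value both in Myd88-/- hosts (0.07 ± 0.16). Jun read 9.94, 10.45, 10.74, 10.50 and 10.63 against 10.17, 10.17, 10.19, 10.31 and 10.44. Its single lowest array was WT replicate 1, and the difference was -0.20 ± 0.13 (-0.48 to 0.09). Junb read 10.33, 10.27, 10.31, 10.14 and 9.93 against 9.93, 9.92, 9.76, 10.38 and 9.94. In Junb 4 of 5 Myd88-/- arrays lay at or below 9.94, but replicate 4 was the highest of all 10, and the difference was -0.21 ± 0.12 (-0.47 to 0.05). Atf3 read 10.59, 10.93, 10.92, 10.87 and 10.91 against 10.80, 10.96, 10.83, 11.08 and 11.15, a difference of 0.12 ± 0.10 with overlapping groups.

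Hspa1b read 10.42, 11.21, 11.46, 11.46 and 11.52 in WT hosts and 10.68, 11.30, 11.27, 11.18 and 11.37 in Myd88-/- hosts. Replicate 1 was the lowest array in each group, and the rest of both groups lay together. The difference was -0.05 ± 0.20 (-0.49 to 0.38), and the 2 other probe sets gave -0.11 ± 0.24 and -0.02 ± 0.21. Of 18 other heat shock genes tested, none was called in either direction (median 0.04), and none of 13 genes of endoplasmic reticulum stress (median 0.03).

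**Figure D1:**
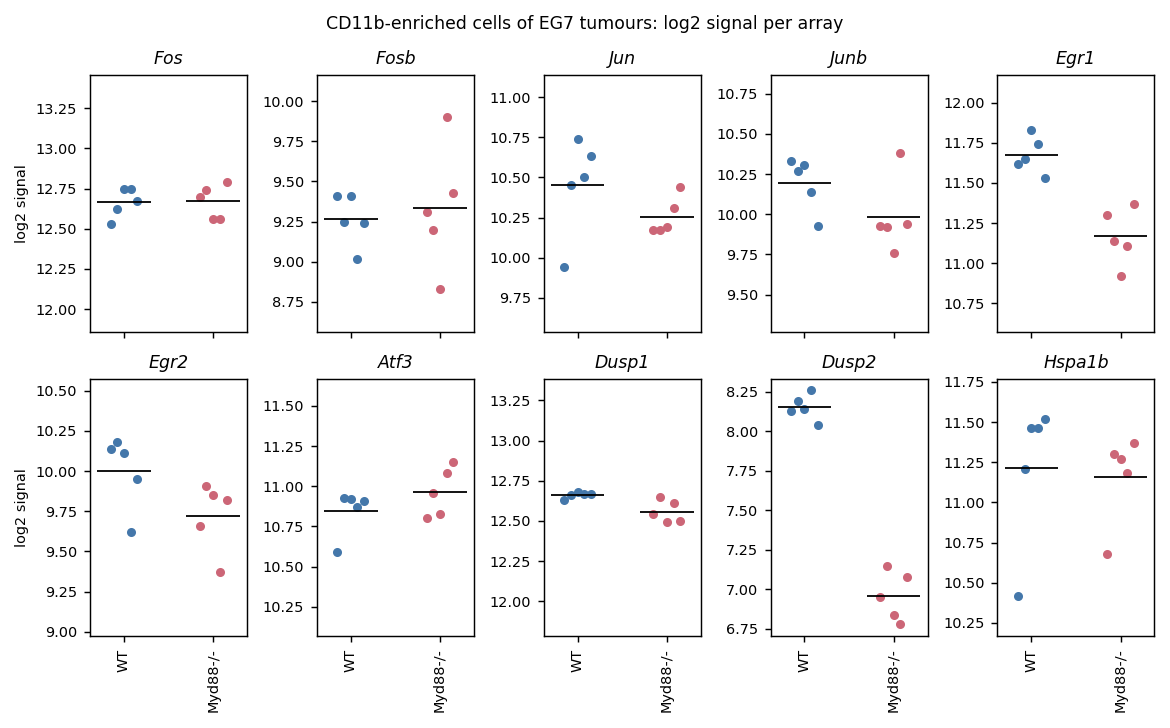
Log2 signal of the 10 members in CD11b-enriched cells of EG7 tumours; each point is 1 array (5 WT, 5 Myd88-/-), lines are group means and each panel has its own axis. Dusp2 and Egr1 show no overlap between the groups, and replicate 1 lies lowest for Hspa1b in both.

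Other immediate-early genes and inducers gave the setting for these values. Of 16 further immediate-early transcription factors tested, 2 fell and none rose: the orphan receptor Nr4a1 (-0.56 ± 0.10) and the small Maf protein Maff (-0.79 ± 0.17), with a list median of -0.14. Of 21 immediate-early genes that encode no transcription factor, 7 fell and none rose, among them Ier3 (-0.84 ± 0.09), the cytokine signal inhibitor Socs3 (-0.75 ± 0.12), and Gadd45a and Gadd45b (-0.65 ± 0.11 and -0.50 ± 0.08). In the MAP kinase and serum response pathway 2 of 16 fell, Map3k8, which activates the ERK cascade downstream of Toll-like receptors (-0.59 ± 0.12), and Mapkapk2 (-0.51 ± 0.11). Among 21 primary response genes of Myd88 and TNFR1, such as cytokines and NF-kB feedback genes, 16 fell, with a median of -0.64. These included Tnf (-1.38 ± 0.08), the atypical IkB gene Nfkbiz (-1.73 ± 0.12), Tnfsf9 (-1.49 ± 0.12) and the cytokine subunit Il23a (-4.27 ± 0.15). Against that median of -0.64, Dusp2 had fallen further and Egr1 less far. These differences between genes were not tested. The lists were chosen with earlier results of these data known, so their counts and medians are descriptions and no independent yardstick.

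Markers of other cells moved with host genotype as well. Of 9 monocyte markers tested 6 were lower in Myd88-/- hosts, and the mean level of the list was 7.89 to 8.17 there against 8.63 to 8.81 in WT hosts. Nr4a1 is 1 of these 6 and was also counted above among the immediate-early factors. Of B lymphocyte markers 1 of 3 was lower. No marker of neutrophils, mature macrophages, dendritic cells, natural killer cells, T lymphocytes, fibroblasts or endothelium was called. No marker was at 0, as array signals never are, and the part of fewer monocytes in the falls of Dusp2 and Egr1 was not tested.

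The tumour models ask whether these genes differ between CD11b+ cells of neuroblastoma and of EG7 tumours. Of the 10 members 1 passed the test: Atf3 was higher in neuroblastoma by 0.70 ± 0.18 log2 units, 1.62 times the EG7 signal. All 3 neuroblastoma arrays also lay above every EG7 array for Jun and Egr1 and below every EG7 array for Hspa1b, without passing the test. How many of all genes stood apart in this way was not counted. At an unadjusted p under 0.05 by limma stood 2 of 10 members and 3786 of 12577 genes. Over all 12577 genes tested 14.7% were called, 9.49% higher and 5.22% lower, so 1 call among 10 is no more than the background.

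The stress factor Atf3 had values of 12.43, 12.18 and 12.12 in neuroblastoma, against 11.53, 11.78 and 11.32 for EG7. The groups stood apart, with limma adjusted p = 0.0462 and an interval of 0.27 to 1.13. This call rested on all 6 arrays: leaving out any 1 of them gave 0.59 to 0.82 with adjusted p = 0.0607 to 0.162, and the fit with a replicate block gave adjusted p = 0.0863.

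Egr1 read 13.18, 12.48 and 12.26 against 11.79, 12.25 and 11.66, a difference of 0.74 ± 0.29 (adjusted p = 0.138) whose groups barely stood apart (12.26 against 12.25). Jun read 12.38, 10.81 and 11.04 against 10.67, 10.63 and 10.50. Neuroblastoma replicate 1 carried most of the Jun difference of 0.81 ± 0.40 (adjusted p = 0.233); the second probe set of Jun gave 0.88 ± 0.24 (adjusted p = 0.0569). Hspa1b read 10.29, 11.68 and 11.43 against 11.84, 11.98 and 12.04. Its lowest value came from the same neuroblastoma replicate 1 that was highest for Jun, and the difference was -0.82 ± 0.36 (adjusted p = 0.181), with -1.15 ± 0.48 and -1.05 ± 0.48 from its other probe sets. Without neuroblastoma replicate 1 the difference was -0.40 for Hspa1b (limma adjusted p = 0.208), 0.33 for Jun (adjusted p = 0.282) and 0.47 for Egr1 (adjusted p = 0.267).

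The remaining members overlapped between the models. Fos read 13.60, 13.35 and 13.27 against 13.15, 13.28 and 13.19 (0.20 ± 0.15), Fosb 11.41, 10.86 and 10.68 against 10.40, 10.94 and 10.34 (0.42 ± 0.26), and Junb 11.57, 11.12 and 10.93 against 10.96, 11.12 and 10.86 (0.23 ± 0.20). Neuroblastoma replicate 1 was the highest array for each of these 3 AP-1 genes, and without it they were at 0.10 (Fos), 0.21 (Fosb) and 0.05 (Junb). Egr2 read 11.07, 11.13 and 10.74 against 10.58, 11.51 and 10.83, a difference of 0.01 ± 0.27, while its other probe set gave -0.30 ± 0.29. Dusp1 read 13.54, 13.26 and 12.99 against 13.15, 13.26 and 13.23 (0.05 ± 0.18), and Dusp2 8.80, 10.55 and 9.52 against 8.96, 9.50 and 8.72 (0.56 ± 0.45). Dusp2 had its highest value in neuroblastoma replicate 2, not in the replicate that was high for the AP-1 genes, and was at 0.10 without it.

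**Figure D2:**
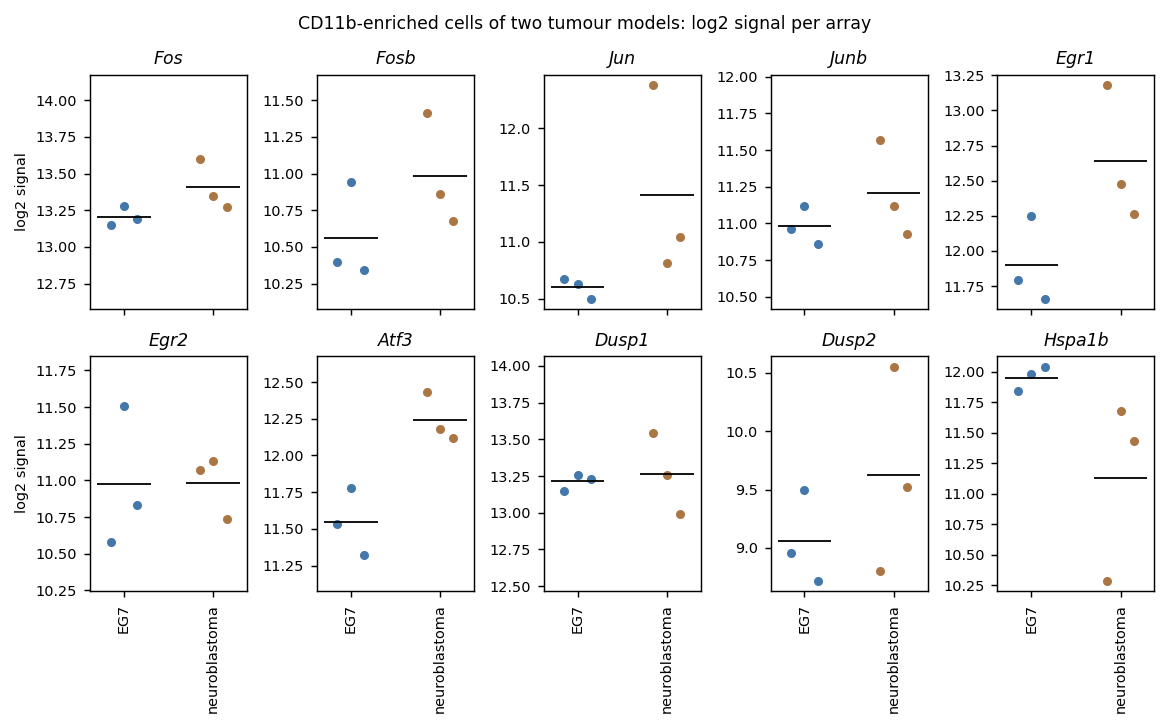
Log2 signal of the 10 members in CD11b-enriched cells of EG7 tumours and neuroblastoma; each point is 1 array (3 per model), lines are group means and each panel has its own axis. Atf3, Egr1, Jun and Hspa1b do not overlap between the models, and neuroblastoma replicate 1, the leftmost point of its group, stands apart for Jun and Hspa1b. The share of all genes without overlap was not counted.

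Among related genes, none of 17 immediate-early transcription factors and 2 of 21 other immediate-early genes were called, both higher: Ppp1r15a, which reverses the block of translation under stress (0.97 ± 0.16), and the kinase gene Sik1 (1.15 ± 0.20). Of 8 MAP kinase phosphatases Dusp6 (1.68 ± 0.27) and Dusp8 (2.11 ± 0.38) were higher and Dusp7 lower (-0.99 ± 0.18). Of 19 heat shock genes only the small heat shock protein gene Hspb1 was called, at 1.86 ± 0.30, and Asns and Trib3 of the 13 genes of endoplasmic reticulum stress fell by 2.28 and 1.75. The cell mixtures differed as well: 10 of 10 neuronal markers, 6 of 7 endothelial and 3 of 7 fibroblast markers were higher in neuroblastoma, and 8 of 9 T lymphocyte markers lower. Among myeloid and other markers, the MHCII genes H2-Eb1 (-4.56 ± 0.62) and H2-Aa (-2.63 ± 0.48) and the macrophage gene Adgre1 (-0.92 ± 0.17) were the 3 of 8 gate markers called, all lower in neuroblastoma. Of 9 monocyte markers Cx3cr1 (1.5 ± 0.22) and Treml4 (1.93 ± 0.42) were higher, as was 1 of 3 B lymphocyte markers, and Adgre1 was the 1 of 12 mature macrophage markers called. The mean level was 9.94 to 11.02 against 11.30 to 11.40 for the gate markers, 8.64 to 10.59 against 9.54 to 9.80 for monocytes, 4.55 to 6.73 against 4.28 to 4.53 for B lymphocytes and 11.40 to 11.83 against 11.01 to 11.25 for mature macrophages. The mean level of the neuronal list was 8.38 to 9.42 in neuroblastoma against 3.65 to 3.70, of the endothelial list 8.11 to 9.09 against 6.46 to 7.09, of the fibroblast list 8.01 to 9.22 against 6.89 to 7.47, and of the T lymphocyte list 4.58 to 5.73 against 8.41 to 8.72. Their part in the differences of Atf3, Egr1, Jun and Hspa1b was not tested.

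In the sorted cells, the first question is how the 2 populations differ. Over the 4 genotypes, 4 members were lower in population A than in C, namely Egr2, Fos, Atf3 and Jun, and none was higher. Over all 16524 genes tested 32.3% were called, 11.1% higher and 21.3% lower in A, so the members' 4 of 10 is near the background. The list median was -0.29 against 0.02 over all genes.

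Egr2 gave the clearest difference. Its 2 arrays read 7.96 and 7.71 in A of WT hosts, 7.83 and 7.31 in TNFR1-/-, 8.04 and 8.24 in Myd88 cKO and 7.44 and 7.75 in double KO. In C it read 8.69 and 8.17 in WT hosts, 8.75 and 8.73 in TNFR1-/-, 8.61 and 8.43 in Myd88 cKO and 8.74 and 8.97 in double KO. A single A array (8.24) exceeded a single C array (8.17), and within each genotype the populations did not overlap. The difference was -0.85 ± 0.10 (8 arrays each, limma adjusted p = 3.85e-05), or 0.554 times the level of C, and it was called in all 23 alternatives (-0.92 to -0.63).

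Fos, the AP-1 subunit, read 9.94 and 9.07 in A of WT hosts, 9.35 and 9.15 in TNFR1-/-, 9.11 and 9.48 in Myd88 cKO, and 9.60 in both double KO arrays. In C its values were 10.07 and 9.83, 9.89 and 10.07, 9.81 and 9.75, and 9.96 and 9.81 in the same order of genotypes. Only the first WT array of A reached into the range of C, and the difference was -0.49 ± 0.11 (limma adjusted p = 0.00475). Atf3 read 11.05 and 10.68, 10.60 and 9.81, 10.14 and 10.76, and 10.01 and 10.73 in A against 11.06 and 10.77, 11.05 and 11.09, 11.08 and 11.03, and 11.04 and 10.87 in C. Population C was even for Atf3 while population A spread over more than 1 log2 unit, and the difference was -0.53 ± 0.14 (limma adjusted p = 0.0103). Jun read 11.30 and 10.84, 10.59 and 9.90, 9.86 and 10.35, and 10.53 and 11.05 in A against 10.89 and 10.87, 10.85 and 11.11, 10.84 and 10.80, and 11.10 and 10.94 in C. The highest and the lowest Jun values both came from A, with a difference of -0.37 ± 0.12 (limma adjusted p = 0.0325).

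The other members did not pass the test between populations. Dusp1 read 12.56 and 12.06, 12.37 and 12.66, 12.53 and 12.34, and 12.88 and 12.36 in A against 12.30 and 12.03, 12.26 and 12.40, 12.24 and 12.16, and 12.19 and 12.04 in C, a difference of 0.27 ± 0.10 (limma adjusted p = 0.0589). Egr1 read 9.27 and 8.78, 9.21 and 9.70, 9.57 and 9.03, and 9.73 and 8.97 in A against 9.21 and 8.99, 9.53 and 9.51, 8.41 and 8.48, and 8.99 and 8.89 in C (0.28 ± 0.13, adjusted p = 0.107). Egr1 and Dusp1 thus had the opposite sign to Egr2 and Fos. Fosb read 10.37 and 9.73, 10.57 and 11.09, 10.51 and 10.47, and 11.07 and 10.31 in A against 10.90 and 10.29, 10.82 and 10.83, 10.83 and 10.66, and 10.56 and 10.70 in C (-0.18 ± 0.14). Junb read 11.25 and 10.19, 10.99 and 11.44, 10.99 and 10.71, and 11.17 and 10.63 in A against 10.83 in both WT arrays, 10.87 and 10.91, 11.11 and 10.82, and 10.71 and 10.60 in C (0.09 ± 0.14). For Fosb and Junb the range of A enclosed that of C.

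Dusp2 read 8.07 and 7.82, 7.63 and 7.15, 7.24 and 7.26, and 7.15 and 7.64 in A against 7.97 and 7.63, 8.19 and 8.68, 7.26 and 7.15, and 7.77 and 7.27 in C. The lowest values of Dusp2 came from Myd88 cKO in C and from TNFR1-/- and double KO in A, with a difference between populations of -0.24 ± 0.12 (limma adjusted p = 0.128). Hspa1b read 11.72 and 11.78, 11.17 and 10.38, 9.91 and 10.86, and 10.53 and 11.66 in A against 10.92 and 11.11, 11.70 and 12.00, 10.93 and 10.94, and 11.63 and 11.51 in C (-0.34 ± 0.17, adjusted p = 0.148). In WT hosts alone both A arrays of Hspa1b lay above both C arrays (0.74 ± 0.35, adjusted p = 0.173), whereas in TNFR1-/- and Myd88 cKO hosts both A arrays lay below both C arrays.

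In WT hosts alone, 1 of 10 members and 4903 of 16524 genes had an unadjusted p under 0.05 between A and C by limma. No member was called, where 13.5% of all genes were called (3.53% higher and 9.92% lower in A). With quantile normalization the share of higher genes among those called went from 26.2% to 40.7%. Egr2 was at -0.60 ± 0.21 (limma adjusted p = 0.0757) with groups that did not overlap, Fos at -0.44 ± 0.23, Atf3 at -0.05 ± 0.28 and Jun at 0.19 ± 0.25. Whether these differences in WT hosts depart from those in mutant hosts was not tested. Single arrays decided calls here: Fos was at -0.88 (limma adjusted p = 0.00725) without WT replicate 1 of A, and Egr2 at -0.86 (adjusted p = 0.0375) without WT replicate 2 of C. Hspa1b stayed at 0.74 when 3 other arrays of A, named next, were left out of the fit. That choice narrows its spread by design, so the fit cannot add support.

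Calls between the populations depended on scale and on 3 arrays. With quantile normalization of the 16 arrays, the share of higher genes among all called genes went from 34.2% to 44.3%; Fos (-0.25, limma adjusted p = 0.0541), Atf3 (-0.35, 0.105) and Jun (-0.17, 0.382) lost their calls, and Dusp1 (0.44, 0.00178) and Egr1 (0.50, 0.00313) became higher in A. Without TNFR1-/- replicate 2, Myd88 cKO replicate 1 and double KO replicate 1 of population A, an alternative added after the values were seen, Egr2 alone was called; Fos was at -0.42 (adjusted p = 0.0586), Atf3 at -0.26 and Jun at -0.16. Leaving out 1 array at a time ended the Jun call in 10 of 16 fits (limma adjusted p = 0.0526 to 0.0881): those without these 3 A arrays or WT replicate 2 of A, and those without WT replicate 1 or 2, TNFR1-/- replicate 2, Myd88 cKO replicate 1 or 2 or double KO replicate 1 of C. Without the library labelled double KO replicate 2 of A, whose Tnfrsf1a signal went against its label, Dusp1 (limma adjusted p = 0.0212), Egr1 (0.0246) and Hspa1b (-0.48, 0.0244) were called too. Dusp1 was at 0.33 without WT replicate 2 of A and was called with a replicate block (limma adjusted p = 0.0484). Calls over all genes moved across the alternatives too, as given at the end. The added calls can therefore not be read as particular to the members.

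**Figure D3:**
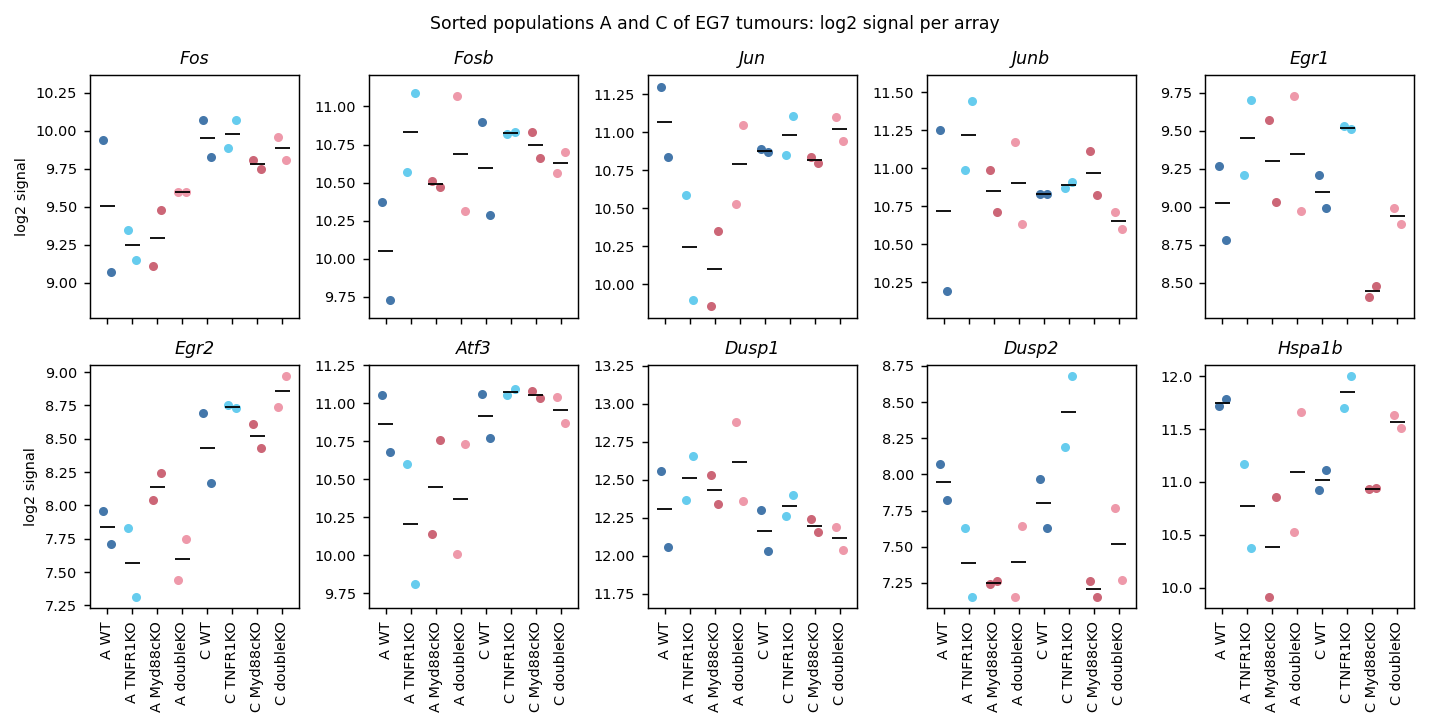
Log2 signal of the 10 members in population A and population C of EG7 tumours from hosts of 4 genotypes; each point is 1 array (2 per group), lines are group means and each panel has its own axis. Egr2 and Fos lie lower in A, Egr1 is lowest in Myd88 cKO of C, and the 2 arrays of a pair often lie further apart in A than in C, with exceptions such as Dusp2.

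Related genes moved in both directions between the populations. Of 15 further immediate-early transcription factors 4 were higher in A and 3 lower, with Nr4a1 at 0.72 ± 0.12, Klf4 at -1.15 ± 0.16, Myc at -0.67 ± 0.10 and Klf6 at -0.37 ± 0.09. Of 21 other immediate-early genes 4 were higher and 8 lower, from the matricellular protein gene Ccn1 (0.91 ± 0.08) to the kinase genes Sgk1 (-1.13 ± 0.13) and Plk2 (-0.82 ± 0.08) and the RNA-binding Zfp36l1 (-1.12 ± 0.15). Of 9 phosphatases Dusp16 was higher (0.28 ± 0.10) and Dusp7 (-0.88 ± 0.16) and Dusp3 (-0.91 ± 0.16) lower. Over the 4 genotypes the heat shock list went 1 way: 11 of 20 were lower in A and none higher (median -0.38). Among them were the heat shock factor Hsf2 at -0.70 ± 0.09, the mitochondrial chaperone Hspa9 at -0.81 ± 0.12, Hsph1 at -0.80 ± 0.15 and Ahsa1 at -0.55 ± 0.10. In WT hosts alone 4 of 20 were lower in A and 1 was higher, Hspa1l at 0.945 ± 0.175. Of 12 genes of endoplasmic reticulum stress 4 were lower (Calr, Hsp90b1, Hspa5 and Sdf2l1, -1.13 to -0.89) and 1 higher, and in the MAP kinase list 6 of 17 were lower and 1 higher. Of 21 primary response genes 10 were lower and 1 higher, led by the chemokine gene Cxcl1 (-1.91 ± 0.12).

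Cell markers differed between the populations too. Nr4a1 counts here as a monocyte marker and above as an immediate-early factor. Of 12 mature macrophage markers 11 were lower in A (mean level of the list 7.19 to 9.40 against 9.59 to 10.05 in C). Higher in A were 7 of 11 neutrophil markers (6.03 to 6.58 against 5.26 to 5.50), 5 of 9 monocyte markers (8.22 to 8.90 against 7.37 to 8.07), 6 of 9 T lymphocyte markers (5.95 to 7.34 against 6.03 to 6.64), 5 of 7 fibroblast markers (5.75 to 6.78 against 5.55 to 5.80) and 3 of 6 endothelial markers (5.34 to 6.28 against 5.11 to 5.35). Lower in A were 2 of 7 dendritic cell markers, Ccr7 (-2.10 ± 0.14) and Flt3 (-0.46 ± 0.11), with list means of 6.05 to 6.20 against 6.23 to 6.86. Cd79b, 1 of 3 B lymphocyte markers, was at -0.81 ± 0.11 (4.83 to 5.16 against 4.84 to 5.75), and of 4 natural killer markers 1 was higher and 1 lower (5.20 to 5.54 against 5.07 to 5.41). Of 9 gate markers 3 were higher, led by Ly6c2, and 4 lower, led by the MHCII genes H2-Eb1, H2-Ab1 and H2-Aa. Their part in the differences of Egr2, Fos, Atf3 and Jun was not tested.

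Loss of Myd88 through Tie2-Cre, averaged over hosts with and without TNFR1 (4 arrays against 4), asks which members differ with Myd88 in sorted cells. No member was called in population C, where 0.0182% of all genes were called (0.00605% higher and 0.0121% lower). At an unadjusted p under 0.05 by limma stood 2 of 10 members and 771 of 16524 genes. Of the marker lists only 1 of 9 monocyte genes was called there, Chil3 at 2.69 ± 0.35. The 2 members were again Dusp2 and Egr1. Dusp2 was at -0.76 ± 0.17 (-1.11 to -0.40, adjusted p = 0.255), 0.593 times the level with Myd88, and stood 31st of all genes by p. Egr1 was at -0.62 ± 0.18 (-1.0 to -0.23, adjusted p = 0.652). For Egr1 the groups met at 8.99, read by 1 WT and 1 double KO array, and every other array without Myd88 lay below that value. That double KO array was replicate 1, whose Myd88 signal was the highest of the deleted C arrays, and its Dusp2 value (7.77) overlapped the arrays with Myd88 as well. Without it Dusp2 was at -0.88 (limma adjusted p = 0.150) and Egr1 at -0.64 (adjusted p = 0.808).

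With only the 8 arrays of population C in the fit, whose spread was smaller, Egr1 at the same difference passed the test (limma adjusted p = 0.0349) and Dusp2 did not (adjusted p = 0.0693). The share of all genes called in that fit alone is not given here. The remaining 8 members differed by -0.18 to 0.10 in C, Hspa1b at -0.18 ± 0.24 having the widest interval (-0.71 to 0.35). Bead-enriched cells of Myd88-/- hosts, on another chip and from a germline deletion, gave -1.19 for Dusp2 and -0.51 for Egr1. In both designs Fos lay near 0, at 0.01 and -0.13 ± 0.16. The differences between the designs were not tested.

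In population A, no member had an unadjusted p under 0.05 with Myd88 loss by limma, against 3579 of 16524 genes. None was called, although 4.67% of all genes were called there (4.19% higher and 0.478% lower). With quantile normalization the higher share of those calls went from 89.8% to 70.1%. Dusp2 was at -0.34 ± 0.17 (-0.70 to 0.01, adjusted p = 0.247), Hspa1b at -0.52 ± 0.24 (-1.05 to 0.00, adjusted p = 0.234) and Egr1 at 0.09 ± 0.18. The difference between the 2 populations in the effect on Egr1 was 0.70 ± 0.25 (unadjusted p = 0.0155, adjusted p = 0.457), which did not pass the test. For Dusp2 it was 0.41 ± 0.24 (adjusted p = 0.608). No gene at all passed this test of a difference (0% called), with 1 of 10 members and 1532 of all genes at an unadjusted p under 0.05.

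Other stress genes did move in A with Myd88 loss. Of 20 heat shock genes 4 rose, among them the co-chaperone Stip1 (0.87 ± 0.15), Hspa9 (0.77 ± 0.17) and Hspa4 (0.51 ± 0.12), and Hspa1l, of the same family as Hspa1b, fell (-0.50 ± 0.12). Of 12 genes of endoplasmic reticulum stress Asns (1.03 ± 0.18), Hsp90b1 (0.91 ± 0.17) and Dnajb9 (0.72 ± 0.15) rose. Ccn1 (0.78 ± 0.11) and Sgk1 (0.69 ± 0.18) rose among the other immediate-early genes, and none of 15 immediate-early transcription factors was called. Of 21 primary response genes 4 fell, Nfkbiz (-1.21 ± 0.21), Nfkbia (-0.98 ± 0.19), Tnfaip3 (-0.81 ± 0.16) and Il6 (-0.69 ± 0.18). Markers moved in the same comparison: 7 of 12 mature macrophage, 4 of 9 T lymphocyte, 2 of 7 fibroblast and 1 of 6 endothelial markers rose, the first list lying at 8.15 to 9.40 without Myd88 against 7.19 to 7.84 with it. Their part was not tested. None of the members of these stress and response lists was called in population C with Myd88 loss.

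Loss of TNFR1, averaged over hosts with and without Myd88, left no member called in either population. In C 1.09% of all genes were called (0.472% higher and 0.617% lower). There 4 of 10 members had an unadjusted p under 0.05 by limma, as had 1215 of 16524 genes. All 4 members had higher means in TNFR1-/- hosts. Hspa1b was at 0.74 ± 0.24 (0.21 to 1.26, adjusted p = 0.310), and its 4 arrays without TNFR1 (11.51 to 12.00) all lay above the 4 with it (10.92 to 11.11). Egr1 was at 0.46 ± 0.18 (adjusted p = 0.497), Dusp2 at 0.47 ± 0.17 (adjusted p = 0.368) and Egr2 at 0.32 ± 0.15 (adjusted p = 0.667), the last also with groups that did not overlap. The share of all genes whose arrays stood apart in this way was not counted. With only the arrays of C in the fit, Hspa1b (limma adjusted p = 0.00189) and Egr1 (adjusted p = 0.0239) passed the test. The share of all genes called in that fit alone is not given here either. Without the 3 arrays of A named above, Hspa1b stayed at 0.74. Those arrays were chosen after the values were seen, and Hspa1b differed widely within their pairs. Leaving them out narrows its spread by design, so that fit cannot add support.

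In A 0.182% of all genes were called (0.0424% higher and 0.139% lower). There 2 of 10 members had an unadjusted p under 0.05 by limma, as had 2287 of 16524 genes. These members were Fosb at 0.49 ± 0.19 (limma adjusted p = 0.281) and Egr2 at -0.41 ± 0.15 (adjusted p = 0.245). Hspa1b was at -0.13 ± 0.24 there (-0.66 to 0.39). Without the library labelled double KO replicate 2, whose Tnfrsf1a signal was that of WT arrays, Fosb was at 0.68 (limma adjusted p = 0.0747), Egr2 at -0.48 (adjusted p = 0.156) and Hspa1b at -0.42 (adjusted p = 0.408). Without double KO replicate 1 they were at 0.30, -0.33 and 0.15. The effects in A and C differed by -0.87 ± 0.35 for Hspa1b, -0.73 ± 0.21 for Egr2 and -0.68 ± 0.24 for Dusp2 (unadjusted p = 0.0253, 0.00375 and 0.0121). None of these 3 passed the test by limma (adjusted p = 0.706, 0.417 and 0.595), in which 0.103% of all genes were called (0.00605% higher and 0.0968% lower). At an unadjusted p under 0.05 stood 3 of 10 members and 1074 of 16524 genes. Among related genes in C, Sgk1 (-1.14 ± 0.18) and the cytokine gene Il1a (-0.92 ± 0.18) fell and Il6 rose (0.89 ± 0.18), and in A Ccn1 fell (-0.68 ± 0.11). No heat shock gene of 20 was called with TNFR1 loss in either population. Among cell markers, 2 of 7 for dendritic cells, 1 of 3 for B lymphocytes and 1 of 4 for natural killer cells rose in C, and 2 of 6 for endothelium, 1 of 12 for mature macrophages and 1 of 9 for monocytes fell in A; their part was not tested.

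Each mutant genotype was also set against WT within its population, on 2 arrays each, so these 6 comparisons share their WT arrays. Over 60 tests of members 2 were called, both in Myd88 cKO of population A, where 3.18% of all genes were called (2.47% higher and 0.708% lower): Jun at -0.97 ± 0.25 (limma adjusted p = 0.0497) and Hspa1b at -1.37 ± 0.35 (adjusted p = 0.0485). Both lay just inside the threshold, and no member was called without a filter, with the mean of probe sets, with trend and robust variances, with array weights or with only the arrays compared. The same was true without WT replicate 1 of A, without either Myd88 cKO array of A, or without any 1 array of C. In that comparison 7 of 12 mature macrophage markers were higher in Myd88 cKO (list mean 8.98 and 9.40 against 7.84 and 7.48), and 1 of 6 endothelial markers, Cdh5 at 1.40 ± 0.18 (6.28 and 6.0 against 5.68 and 5.65). The neutrophil genes Elane (-0.86 ± 0.15) and Ltf (-0.79 ± 0.18) were lower, 2 of 11 (6.31 and 6.34 against 6.47 and 6.58). Of 9 monocyte markers Cx3cr1 (-0.81 ± 0.18) and Treml4 (-1.66 ± 0.38) were lower and Chil3 higher (1.96 ± 0.50), with list means of 8.22 and 8.37 against 8.90 and 8.68. The part of these cells in the calls of Jun and Hspa1b was not tested. In the other 5 comparisons no member was called by limma. At an unadjusted p under 0.05 stood 2 members for double KO in A and for each single mutant in C, 5 for TNFR1-/- in A and 0 for double KO in C. Of 16524 genes, 4095 stood there for double KO in A and 3096 for TNFR1-/- in A. In C the gene counts were 781 for TNFR1-/-, 636 for Myd88 cKO and 1019 for double KO. The background was 0.654% for TNFR1-/- in A (0.315% higher, 0.339% lower), 5.75% for double KO in A (4.33% higher, 1.42% lower), and in C 0.0726% for TNFR1-/- (0.0303% higher, 0.0424% lower), 0.0121% for Myd88 cKO (0.00605% in each direction) and 0.309% for double KO (0.176% higher, 0.133% lower). Side by side in A, Hspa1b was at -0.98 in TNFR1-/-, -1.37 in Myd88 cKO and -0.66 in double KO, and Dusp2 at -0.56, -0.70 and -0.55. In C, Hspa1b was at 0.84, -0.08 and 0.56, Dusp2 at 0.64, -0.60 and -0.28, and Egr1 at 0.42, -0.66 and -0.16. The WT arrays of A were the 2 highest of that population for Hspa1b and for Dusp2, so each mutant value there leans on those same 2 arrays.

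**Figure D4:**
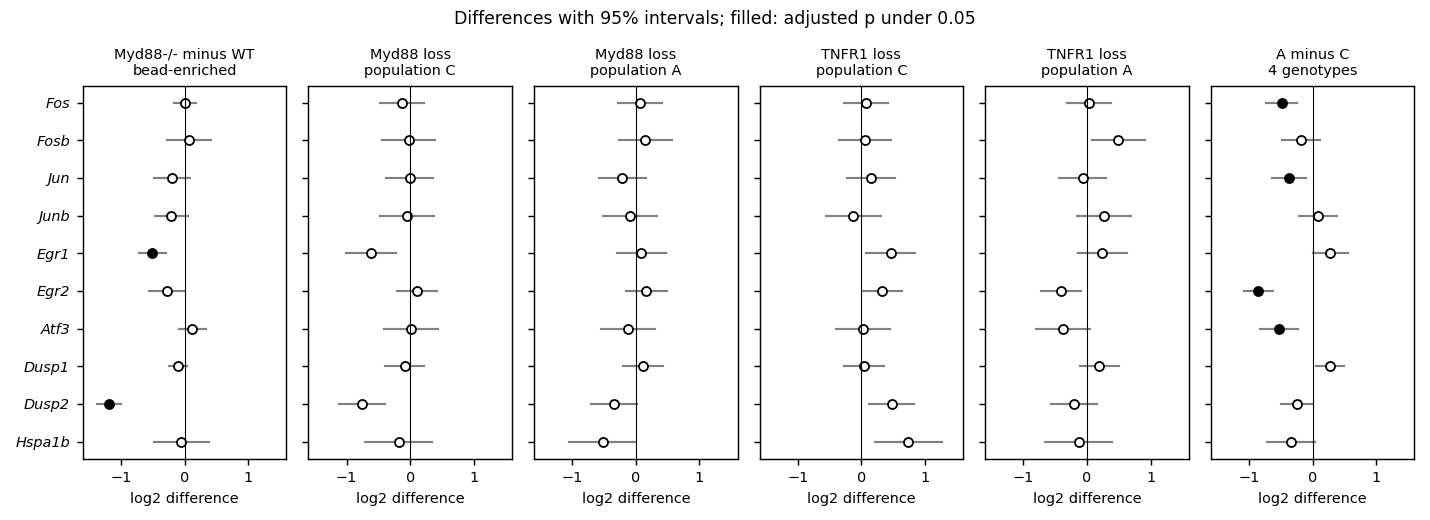
Log2 differences of the 10 members with 95% confidence intervals in 6 comparisons; filled points passed an adjusted p under 0.05. Dusp2 lies left of 0 in all 3 comparisons of Myd88 loss and Egr1 in 2 of them; of these 3 comparisons, the bead-enriched cells alone hold filled points.

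By group mean, Dusp2 was highest in C of TNFR1-/- hosts (8.44) and lowest in C of Myd88 cKO hosts (7.21). The same 2 groups were the extremes for Egr1 (9.52 and 8.45), whereas Hspa1b ran from C of TNFR1-/- hosts (11.85) to A of Myd88 cKO hosts (10.39). Fos, Atf3 and Egr2 were lowest in A of TNFR1-/- hosts. Neighbours in these orders mostly did not differ beyond their spread. When the 8 groups were ranked by mean, 5 to 7 of the 7 neighbouring pairs overlapped for every member, and all 7 for Junb, Atf3 and Dusp1.

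Members varied together within pairs of population A. The spread within groups was larger in A than in C for 9 of 10 members, the exception being Dusp2 (SD 0.26 against 0.28). It was 0.59 against 0.13 for Hspa1b, 0.46 against 0.11 for Junb, 0.46 against 0.12 for Atf3, 0.41 against 0.09 for Egr1 and 0.39 against 0.11 for Jun. Over all genes tested the median SD was 0.198 in A and 0.149 in C. In 3 of the 4 pairs of A the array that was higher in Fosb, Junb, Egr1 and Dusp1 was lower in Jun, Egr2, Atf3 and Hspa1b. These were TNFR1-/- replicate 2, Myd88 cKO replicate 1 and double KO replicate 1. In the double KO pair, for example, replicate 1 exceeded the library labelled replicate 2 by 0.76 for both Fosb and Egr1 and lay below it at -0.72 for Atf3 and -1.13 for Hspa1b.

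The WT pair of A behaved otherwise: replicate 1 was higher for 9 of 10 members, by 1.06 for Junb and 0.87 for Fos, and only Hspa1b was lower, at -0.06. None of the 4 pairs of C split in the way the 3 pairs of A did. This split into groups of genes was read from the values and is a description, without a test. In the WT pair of A the mean level of the heat shock list, which leaves out Hspa1b, spanned 6.92 to 7.30. Hspa1b itself read 11.72 and 11.78 there. In the 3 split pairs of A the list went with Hspa1b. It stood at 6.83 and 6.68 for replicates 1 and 2 of TNFR1-/-. The values were 6.90 and 7.22 in Myd88 cKO and 7.19 and 7.42 in double KO. The mature macrophage list stood at 7.83 and 7.19, 8.98 and 9.40, and 8.26 and 8.15, and the neutrophil list at 6.13 and 6.24, 6.31 and 6.34, and 6.46 and 6.03. The part of either in the split was not tested.

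**Figure D5:**
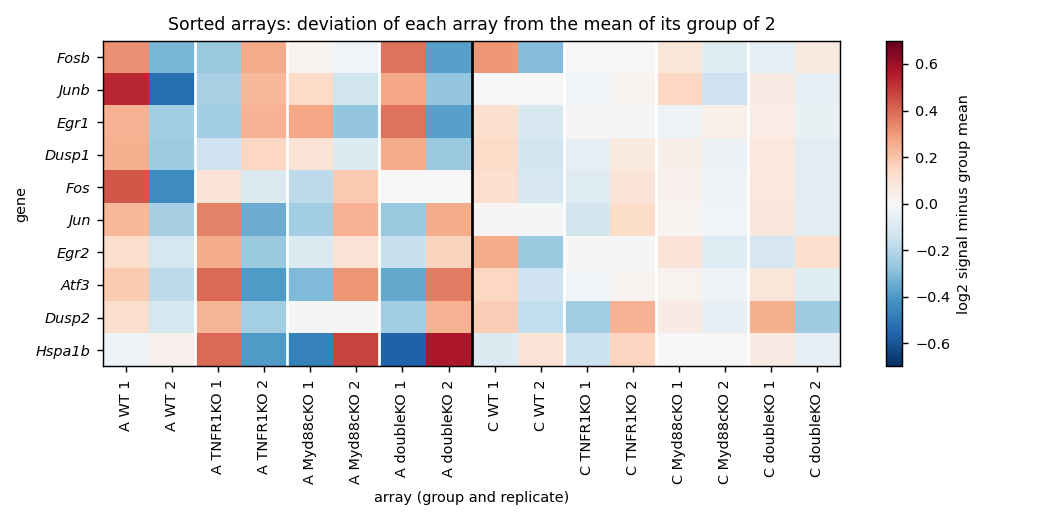
Deviation of each sorted array from the mean of its pair, in log2 units, for the 10 members (rows) and 16 arrays (columns, A left and C right of the black line). In A, Fosb, Junb, Egr1 and Dusp1 deviate one way while Jun, Egr2, Atf3 and Hspa1b deviate the other in the TNFR1-/-, Myd88 cKO and double KO pairs; most cells of C are paler.

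Genes with the most similar pattern over the 16 sorted arrays, by Pearson r on log2 signals, differed from member to member. These arrays share 8 groups, so r mixes differences between groups with those within them. Hspa1b was closest to its copy Hspa1a (r = 0.94), and then to Taf1d and Ccr2. Fos was closest to Rpl8 (0.95), Arf6 and Ndufs4, Jun to Foxn3 (0.93), and Fosb to Gsn (0.92), Mcl1 and Stat6. Junb was closest to Fam120aos (0.91), Unc45a and Use1, and Egr1 to Mrtfa (0.89), Atxn7l1 and the phosphatase gene Dusp5. Egr2 was closest to Rab3il1 (0.97), Frmd4b and Dab2, and Atf3 to Sowahc (0.96), Cd86 and Emb. Dusp1 was closest to Mtmr3 (0.96), Arhgef1 and Cdkn1b, and Dusp2 to Calhm6 (0.90), Gpr31b and Ifi205. No member was among the 3 closest genes of another.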

How the data were processed

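Total RNA, 100 ng per array, was hybridised to HT_MG-430_PM arrays (16) or Mouse Gene 2.0 ST arrays (16). Each deposited file lists a log2 signal for every probe set. According to the submitters' processing notes, the authors computed them by RMA, for which Affymetrix Expression Console 1.1 is named; such normalization hides a global shift between arrays. The sets of arrays normalized jointly are not stated. Genes were named from the platform annotation (HT_MG-430_PM: 28898 probe sets with 1 symbol, 551 with several, 15692 with none; Mouse Gene 2.0 ST: 23521, 1814 and 16010), and the probe set of highest mean over the chip was used.

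Genes above the 40th percentile of an array in at least 3 (tumour models), 5 (Myd88) or 2 (sorted) arrays were tested two-sided in limma 3.58.1 (lmFit, then eBayes) under R 4.3.3. P-values were adjusted by Benjamini-Hochberg over all genes tested and called under 0.05. All 16 sorted arrays entered a single fit with 8 group means. Values after ± are standard errors. Groups without overlap were described for the members, and the share of all genes without overlap was not counted. No depth exists for arrays; their number limits precision. All 10 members, at most 4 called genes of smallest adjusted p per list and comparison, and the 3 genes most like each member were named. Members and lists were chosen with earlier results of these data known. Alternatives were no filter, the mean of probe sets, quantile normalization, trend and robust variances, array weights, a replicate block, only the arrays compared, the actin covariate and leaving out arrays.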

Additional observations from a re-analysis of the deposited data

Results flagged for a closer look

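In 20 groups of 5 arrays (10 members, WT and Myd88-/- hosts), Dixon's rule at the 95% level marked 3 single arrays as far from the rest of their group; chance marks about 1 in 20. All 3 were replicate 1 and lowest. Atf3 read 10.59 in WT replicate 1, with the nearest array at 10.87. Hspa1b read 10.42 in WT replicate 1, nearest 11.21, and 10.68 in Myd88-/- replicate 1, nearest 11.18. WT replicate 1 was also the lowest of its group for Jun (9.94). Actin 3' minus 5' signal was 0.54 in WT replicate 1 and 0.66 in Myd88-/- replicate 1, the lowest and the next to lowest of their groups; the part of RNA integrity in these low values was not tested.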

How the results depend on the processing

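Differences, including those never called, kept their sign and side of the threshold in most settings, and no called difference reversed. Calls were less stable. Dusp2 with Myd88 loss in bead-enriched cells was called in 17 of 17 alternatives and Egr1 in 11. Atf3 between tumour models was called in 5 of 12. Between A and C over 4 genotypes Egr2 was called in 23 of 23, Fos and Atf3 in 21 each and Jun in 11. Whether replicate numbers pair the arrays cannot be told from 1 pair per number (bead-enriched) or 2 arrays per group (sorted). Same-numbered arrays had correlated deviations of -0.05 to 0.22 (tumour models), -0.25 to 0.23 (Myd88) and -0.50 to 0.37 (sorted). In the Myd88 experiment, replicate 1 was lowest for Hspa1b and Atf3 in both groups. With the replicate block the members called went from 1 to 0 in the tumour models, from 2 to 1 in the Myd88 experiment and from 2 to 1 over the single genotypes. The single genotypes, with 2 members called, gave 0 without a filter, with the mean of probe sets, with trend and robust variances, with array weights, with only the arrays compared and without the 3 arrays of A, and 0 to 3 with 1 array left out. The actin covariate left 1 member called in the Myd88 experiment, and leaving out 1 array left 1 to 2. Leaving out 1 array gave 0 calls between the tumour models (0 to 0), 3 to 7 between A and C over 4 genotypes (7 without the library labelled double KO replicate 2 of A, when Dusp1, Egr1 and Hspa1b joined) and 0 to 1 between A and C in WT hosts. Leaving out the 3 arrays of A narrows the spread of Hspa1b by design, so a call of Hspa1b in that fit is no support. Myd88 loss in C went from 0 to 1, and TNFR1 loss in C from 0 to 2, with only the arrays compared; the latter had 1 without the 3 arrays. Myd88 and TNFR1 loss in A and the differences of effects stayed at 0 members. Fitting only the arrays compared gives no other fit for A against C over 4 genotypes or for the differences of effects. Apart from the arrays left out or the smaller spread of C, the cause of these changes was not tested.

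Counts over all genes moved more: 663 to 2639 (main 1850) between tumour models, 20 to 300 (172) in the Myd88 experiment, 3357 to 6653 (5344) and 301 to 3443 (2223) between A and C over 4 genotypes and in WT hosts. For Myd88 loss they were 37 to 2375 (772) in A and 0 to 31 (3) in C, for TNFR1 loss 0 to 790 (30) in A and 78 to 466 (180) in C, for single genotypes 107 to 5018 (1648) and for differences of effects 8 to 53 (17). Quantile normalization moved the median of all genes between tumour models from -0.01 to -0.12, and the share of higher calls from 64.5% to 49.7%. In the single genotype comparisons of A it moved that share from 77.7% to 57.9% for Myd88 cKO and from 75.3% to 59.7% for double KO.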
